A study of Caenorhabditis elegans with 2 samples.

Results

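The strongest 500 binding sites of PQM-1, out of 5560 in the optimal peak list of the nematode Caenorhabditis elegans, are described here by the genes they lay next to. They were chosen by sorting that list on the signal value, a score set by the authors whose scale is not stated, and keeping ranks 1 to 500. The sites come from chromatin immunoprecipitation and sequencing of eGFP-tagged PQM-1 in whole L3 larvae of strain OP201, with both sexes pooled. The genotype is unc-119(tm4063) III; wgIs201, so the tagged protein came from the transgene wgIs201 in an unc-119 mutant background. There were 2 biological replicates of 1 group and no second condition, and the peak lists hold no read counts, so the depth of the libraries is unknown. In whole larvae, binding in few cells and weaker binding in many cells cannot be told apart.

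PQM-1 is a zinc finger transcription factor whose binding has been linked with the DAF-16-associated element, the heptamer TGATAAG. It acts in the intestine, the worm's organ of digestion, fat storage and much of its defence against microbes, and it is known to work in opposition to the insulin-regulated factor DAF-16. GATA factors such as ELT-2, which directs gene expression in the intestine, bind sequences that share the core of that heptamer.

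The target genes were of many kinds, and 175 of the 275 bound genes were in none of the 42 function lists. Those in a list included genes for lysosomal proteases, saposins, lysozymes, lipid enzymes and nuclear hormone receptors, and 11 genes for ribosomal proteins. Of the tissue marker lists, that of the intestine held 6 of the 7 markers bound at the promoter. A gene is called bound here when a summit, the highest point of a peak, lay from 1000 bp upstream to 250 bp downstream of its 5' end. The strongest 500 peaks bound 275 of 19973 protein-coding genes (1.38%), and all optimal peaks together bound 3260 (16.3%).

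The sequences at the summits of 5 targets chosen from those with TGATAAG are shown first, followed by 3 targets without it. They are examples and do not show how common the heptamer is in their gene lists. Each is the window from 50 bp before to 50 bp after a summit, read 5' to 3' on the strand of the named gene, from the WBcel235 genome of RefSeq, which is the same assembly as ce11. Capitals mark TGATAAG, or CTTATCA where the heptamer lies on the other strand. Their signals and distances are given with their gene lists. TGATAAG was at 5 of 6 promoter peaks of lysosomal proteases and 5 of 9 of antimicrobial effectors. It was at 2 of 3 of lipid-binding and storage genes and 2 of 9 of nuclear hormone receptors. The windows of lec-6, lbp-7 and nhr-291 hold 2 copies each, whereas 6.0% of all the strong peaks held 2 or more. Of the 3 windows without TGATAAG, that of act-5 still holds the shorter core GATAA, as TTATC, and those of rpl-20 and iff-2 do not.
cpr-4 (cathepsin B protease, chrV:6614507-6614607, plus strand): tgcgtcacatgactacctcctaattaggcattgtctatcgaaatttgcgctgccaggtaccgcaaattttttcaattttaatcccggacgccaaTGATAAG
lec-6 (galectin, chrIII:600783-600883, minus strand): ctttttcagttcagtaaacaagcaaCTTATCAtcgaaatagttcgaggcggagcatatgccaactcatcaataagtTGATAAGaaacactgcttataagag
spp-5 (saposin-like protein, chrX:7320444-7320544, minus strand): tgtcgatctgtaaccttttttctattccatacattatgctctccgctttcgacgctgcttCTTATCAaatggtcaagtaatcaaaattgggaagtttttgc
lbp-7 (lipid-binding protein, chrV:13879372-13879472, plus strand): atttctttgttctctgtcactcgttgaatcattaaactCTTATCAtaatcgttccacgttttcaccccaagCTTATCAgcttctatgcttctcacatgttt
nhr-291 (nuclear hormone receptor, chrV:15318761-15318861, plus strand): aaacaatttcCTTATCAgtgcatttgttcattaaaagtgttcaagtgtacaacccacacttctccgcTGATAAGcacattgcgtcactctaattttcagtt
rpl-20 (ribosomal protein, chrIV:4750015-4750115, minus strand): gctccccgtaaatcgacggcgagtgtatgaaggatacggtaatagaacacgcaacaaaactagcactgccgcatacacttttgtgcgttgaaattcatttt
iff-2 (translation factor, chrII:8561398-8561498, minus strand): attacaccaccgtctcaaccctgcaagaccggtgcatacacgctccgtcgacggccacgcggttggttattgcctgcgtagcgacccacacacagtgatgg
act-5 (intestinal actin, chrIII:13606247-13606347, minus strand): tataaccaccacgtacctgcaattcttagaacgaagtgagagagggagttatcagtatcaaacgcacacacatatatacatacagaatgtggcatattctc

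Signal within the strongest 500 ran from 99.2 to 471.6 with a median of 122.6, and the other 5060 peaks had a median of 41.2. These values chose the peaks and carry no test. The fall was steep at first, from 471.6 to 225.2 over ranks 1 to 20, and slow at the end, from 107.3 to 99.2 over the last 100. The lower limit therefore cut through closely spaced values. Just inside it, the last 5 peaks lay between 99.7 and 99.2, in introns of Y53F4B.39, F26F12.3 and zip-2 and at the promoters of sri-39 with F33H12.7 and of rpn-3 with hsp-110. Just outside, the next 5 peaks lay between 99.2 and 98.8, near pnp-1, misc-1, B0432.10, W05H9.4, mup-4 and Y38C1AA.1.

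Replicate 2 had a relaxed peak under each of the 500, and replicate 1 under 499. The exception was the peak at rank 405 in the body of sma-9, which had no partner in replicate 1. In replicate 1 the signal ran from 60.9 to 366.9 with a median of 93.8, and in replicate 2 it ran from 5.93 to 102.0 with a median of 32.6. The lists were scored separately, so these levels are not comparable between replicates. Of the peaks, 432 were among the strongest 500 of replicate 1, 338 among those of replicate 2 and 283 among both. The order thus followed replicate 1 more than replicate 2, and across the 499 peaks found in both the signals had a Spearman rho of 0.212, a description over peaks that were selected on the pooled signal. The weakest in replicate 2 was a peak upstream of nhr-105, a nuclear hormone receptor gene, with a signal of 101.9 in replicate 1 and 5.93 in replicate 2, which was rank 9311 there. In position the replicates differed little. Their summits lay a median of 23 bp apart, against 39 bp for the other optimal peaks, which are weaker and also wider, with a median width of 340 bp against 200 bp.

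**Figure D1:**
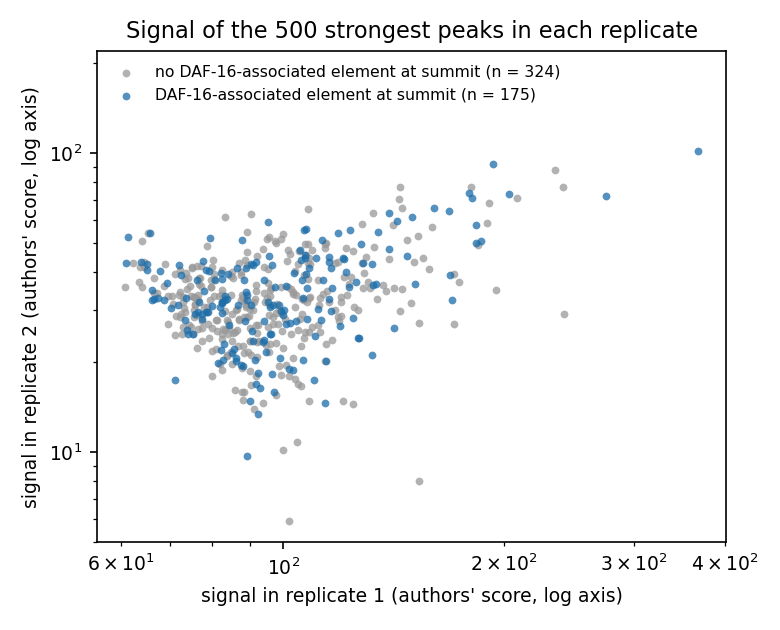
Signal of the strongest peaks in replicate 1 (horizontal, log axis) and replicate 2 (vertical, log axis), 1 point per peak, for the 499 peaks found in both; blue points have TGATAAG within 50 bp of the summit. Blue and grey points share the same cloud, and a few peaks at the bottom, such as that of nhr-105, lie far below the others in replicate 2.

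The strongest peaks were no closer to genes than the weaker ones. Promoters held 238 of the 500 summits (47.6%, exact 95% interval 43.1 to 52.1) and 49.7% of the other 5060 (odds ratio 0.919, interval 0.761 to 1.11; Fisher's exact test, two-sided, p = 0.373). When the peaks were ranked without replicate 1, on the signal of replicate 2 alone, the difference turned around, at 46.8% against 43.5% (exact p = 0.171), and without replicate 2 it passed the threshold, at 45.8% against 50.5% (exact p = 0.0489). Summits more than 2000 bp from any protein-coding 5' end made up 150 of the 500, against 26.5% of the rest (odds ratio 1.19, interval 0.965 to 1.46; Fisher's exact test, p = 0.101). This difference passed without replicate 2, at 30.8% against 25.9% (exact p = 0.0221), and turned around without replicate 1, at 28.8% against 29.4% (exact p = 0.837). Of the other summits, 107 lay in introns, 140 between genes, 9 in untranslated exon parts and 6 in coding exons. GC content within 50 bp of the summit was 39.7% against 40.1% (permutation test with 100000 resamples, p = 0.294).

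Within promoters the summits sat just upstream of the gene. Their median position was -190.5 bp from the nearest 5' end, 223 of 238 lay upstream of it, and 147 lay within 300 bp upstream (61.8%). The other optimal peaks were much alike, with a median of -173 bp, 2254 of 2515 upstream and 58.9% within 300 bp upstream. Among summits between genes, 102 of 140 (72.9%) lay upstream of the nearest 5' end, at a median distance of 2278.5 bp over all 140. In the other optimal peaks 915 of 1216 did (75.2%), at a median distance of 2245.5 bp over all 1216, so these positions were not particular to the strong peaks. These distal sites are assigned to the nearest 5' end here, and which gene they act on was not tested.

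**Figure D2:**
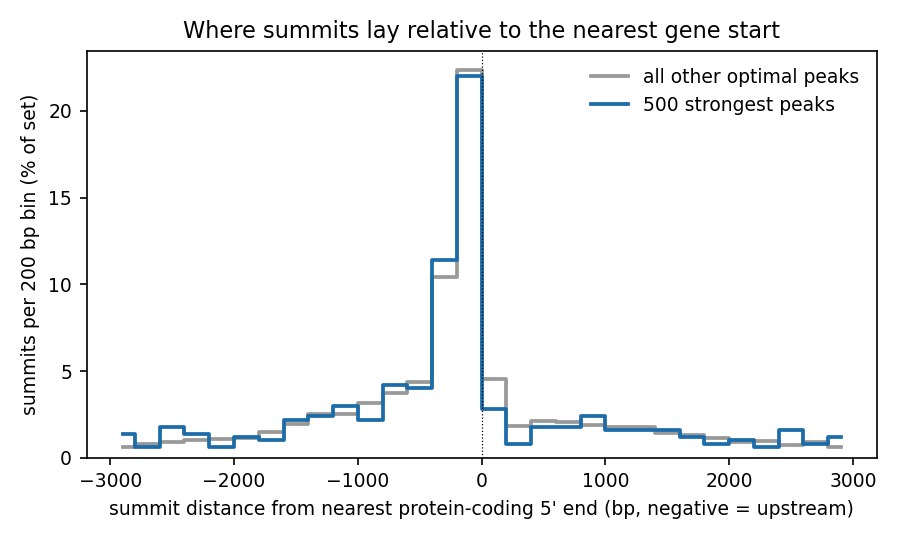
Share of summits (vertical, percent of each set per 200 bp) by distance from the nearest protein-coding 5' end (horizontal, bp, negative is upstream), for the strongest 500 peaks (blue) and all others (grey). Both curves have their top in the bin just upstream of the gene start and nearly coincide elsewhere.

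Peaks in divergent promoters, those of genes on opposite strands, were less common among the strong ones. Such a summit need not lie between the genes, since a promoter here reaches 250 bp past the 5' end. Of promoter summits, 36 of 238 (15.1%) lay in the promoters of genes on opposite strands, against 22.1% of the 2515 other promoter summits (odds ratio 0.628, interval 0.422 to 0.912; Fisher's exact test, p = 0.013). This comparison was added after the values had been seen, and it did not pass without replicate 1 (14.5% against 17.6%, exact p = 0.275) or without replicate 2 (16.6% against 21.9%, exact p = 0.0645). Chromosome I held fewer strong peaks, 43 of 500 (8.6%) against 13.4% (odds ratio 0.609, interval 0.430 to 0.844; Fisher's exact test, adjusted p = 0.0123 over 6 chromosomes). Without replicate 1 the shares for chromosome I were 9.6% and 12.7% (unadjusted exact p = 0.0464), and without replicate 2 they were 8.4% and 13.2% (unadjusted exact p = 0.00155). The X chromosome held 20.2% against 21.5% (odds ratio 0.923, interval 0.727 to 1.16; Fisher's exact test, p = 0.53). No other chromosome passed after adjustment (adjusted p from 0.318 to 0.908), and the test over all chromosomes was added after the values had been seen.

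TGATAAG lay within 50 bp of 175 of the 500 summits (35.0%, exact 95% interval 30.8 to 39.4), against 22.8% of the other optimal peaks (odds ratio 1.83, interval 1.49 to 2.23; Fisher's exact test, adjusted p = 2.21e-08 over 5 motifs, both strands counted). In equal windows centred 500 bp to each side of the summit, 2.2% and 1.2% of the strong peaks held it. Along the list its share went from 35.0% in ranks 1 to 500 and 33.4% in the next 500 to 17% in the last 560. Within the 500, the share was largest in ranks 1 to 20, where 11 held it (55.0%). It was 35.0% in ranks 21 to 40 (7 peaks) and 33.0% in ranks 401 to 500 (33 peaks). The share was 36.6% at promoter summits, 34.3% between genes and 36.4% in introns. It was at 0 of 9 summits in untranslated exon parts, against 22.2% of 126 in the other optimal peaks. In coding exons it was at 1 of 6, against 33.3% of 138. These counts are too small to tell the sets apart. Promoter summits and the rest of the 500 did not differ in this share beyond counting error (odds ratio 1.14, interval 0.775 to 1.67; Fisher's exact test, p = 0.512).

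Repeated copies were more frequent too. Of the strong peaks 30 (6.0%) held at least 2 copies within the window and the fullest held 4, against 2.71% of the other peaks with at least 2. The copies lay a median of 23 bp from the summit, and 22 bp in the other peaks. The bases next to the heptamer were alike in both sets, with A after it in 61.1% of copies against 58.9%, and C before it in 37.0% against 35.6%. On 1 strand or the other, the shorter core GATAA was in 71.4% of the windows against 53.8%. At the other end, 143 of the 500 windows held no GATAA at all.

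The E-box CACGTG, a palindrome bound by many basic helix-loop-helix factors, was the other motif of the 5 that passed. It was at 40 of 500 summits (8.0%) and at 4.68% of the other peaks (odds ratio 1.77, interval 1.22 to 2.52; Fisher's exact test, adjusted p = 0.00589). Of the 40 summits, 13 also held TGATAAG, a share of 32.5% against 35.2% in the 460 without the E-box (Fisher's exact test, p = 0.863). E-box targets included adh-1, an alcohol dehydrogenase gene (rank 83), spp-8, a saposin gene (rank 172), aqp-1, an aquaporin gene (rank 394), and fmo-2, a flavin-containing monooxygenase gene (rank 462). AGATAA, another GATA form, was at 14.2% against 11.6% (adjusted p = 0.159), GTAAACA, the DAF-16 site, at 2.6% against 3.16% (adjusted p = 0.736), and GAGAGAG at 8.6% against 8.26% (adjusted p = 0.799), all by Fisher's exact test. Over all 8192 heptamers, a scan added after the values had been seen, 8 were more common in the strong peaks (0.0977%) and 0 less common by Fisher's exact test at adjusted p under 0.05, while 399 had an unadjusted p under 0.05. TGATAAG had the largest difference, 12.2 percentage points. It was followed by CTGATAA with 11.6 points, then GATAAGA with 10.9 points and ACTGATA with 9.18 points, which can overlap it. The remaining 4 had differences from 2.37 to 3.87 points, the largest of them for GGTGATA.

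**Figure D3:**
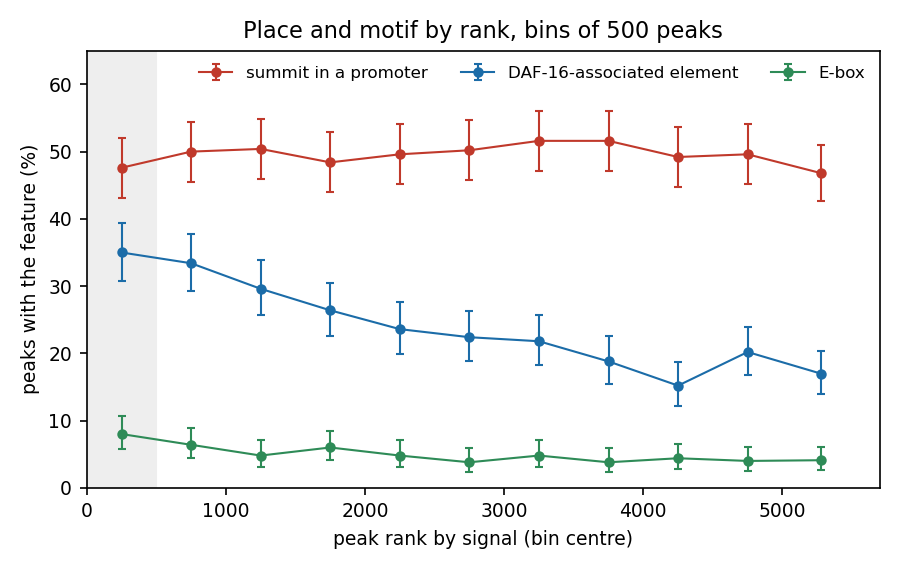
Share of peaks (vertical, percent, bars are exact 95% intervals) with a summit in a promoter (red), TGATAAG (blue) or CACGTG (green) within 50 bp of the summit, by rank in bins of 500 peaks (the last holds 560); the shaded bin is ranks 1 to 500. TGATAAG goes from 35.0% at the left to 17% at the right, while the promoter share is 47.6% at the left and changes little.

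Ranks 21 to 40, the next after the 20 strongest, lay at genes of many kinds. Of these peaks 10 were at promoters, 5 in introns and 5 between genes. At promoters they marked rpl-20, ckc-1, an ethanolamine kinase gene, cdc-48.1, which encodes an AAA ATPase of protein degradation, the F-box gene fbxc-29, nhr-68, and the CUB-like gene C29F3.7. The others at promoters were Y17G9B.5, T21D12.7, Y75B8A.28, H12C20.7, lem-4, Y55F3BR.11 and C52E2.2. In introns they lay in slc-25A21, a mitochondrial carrier gene, T13B5.9, alh-1, an aldehyde dehydrogenase gene, F57B1.6, and pkg-2, a cGMP-dependent kinase gene. Between genes the nearest were nhr-28, C05A2.4, D1054.18, gcy-3, a guanylate cyclase gene, and asp-13. The peak of alh-1 was above the median of the strong peaks in replicate 1 (170.5 against 93.8) and below it in replicate 2 (26.8 against 32.6). That of rpl-20 was above the median in both (144.2 and 77.1).

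The 42 function lists overlap in part, and 100 of the 275 bound genes were in at least 1 of them. Another 11 of the 275 have a product that RefSeq calls uncharacterized. Each list is described by its count beside the 1.38% of all protein-coding genes. There is no test, since the peaks and lists were chosen with results of these data known. A share above or below 1.38% need not be particular to the strong peaks, as the whole optimal list can show it too.

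Lysosomal proteases, which break down proteins in the gut and in lysosomes, were bound in 5 of 35 cases (14.3%, exact 95% interval 4.81 to 30.3). The cathepsin B gene cpr-4 had a signal of 232.8 (167.9 in replicate 1 and 64 in replicate 2), and its relative cpr-3 had 167.0 (121.8 and 48.3). The papain family gene cpr-9 had 2 strong summits, at -679 and 7 bp, with signals of 145.4 and 115.5. The stronger of these also lay in the promoter of gcy-33, so its gene cannot be assigned from position alone. The aspartyl protease gene asp-1 also had 2, at -871 bp (121.5) and at -2693 bp (129.4), and the serine carboxypeptidase gene ctsa-1.2 had 1 at 32 bp (115.4). Of the 6 promoter peaks of this list, 5 held TGATAAG, the exception being cpr-3. A pair of distal peaks near the aspartyl protease gene asp-13, at -8313 and -5295 bp, held it as well. Without replicate 2, on the strongest 500 of replicate 1, 8 of the 35 were bound. Any optimal peak bound 19 of the 35 (54.3%, beside 16.3% of all genes).

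Saposins, lysozymes, galectins and related effectors, which act on microbial membranes and surfaces, were bound in 9 of 129 cases (6.98%, interval 3.24 to 12.8). The strongest were spp-14 (143.5; 103.7 and 40.3 in replicates 1 and 2), lec-6 (138.2; 106.3 and 32.8), spp-5 (137.5; 100.8 and 36.1) and spp-8 (136.1; 110.5 and 24.5). They lie within a narrow range of signal. The lysozyme genes lys-8 (136.0) and lys-2 (122.1) followed, with spp-3, lec-9 and irg-4, an infection response gene. Of these 9 peaks 5 held TGATAAG. The C-type lectins, carbohydrate-binding proteins, were bound in 5 of 240 cases (2.08%, interval 0.680 to 4.79, which spans the 1.38% of all genes). They were led by clec-265 (166.7), clec-78 (151.8), clec-150 (127.8) and clec-72 (106.9), and 3 of 240 were bound without replicate 2. The transthyretin-like genes ttr-37, ttr-48 and ttr-45 made 3 of 58 (5.17%, interval 1.08 to 14.4, which also spans 1.38%).

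Of the 82 genes for proteins of the cytosolic ribosome, 11 were bound (13.4%, interval 6.89 to 22.7), all in a band from -438 to -156 bp. The strongest were rpl-20 (223.1; 144.2 and 77.1 in replicates 1 and 2), rpl-3 (176.6; 141.4 and 35.5), rpl-35 (160.7; 117.5 and 43.1) and rpl-11.2 (139.5). None of the 11 peaks held TGATAAG (exact upper limit 28.5%), against 36.6% of all strong promoter peaks. Any optimal peak bound 62 of the 82 genes (75.6%, beside 16.3% of all genes), so a high share was not particular to the strong peaks. Of the 11 peaks 8 also lay in the promoter of another gene, as at rpl-20 and Y17G9B.5, so the gene cannot be assigned from position alone. Other lists of protein making, turnover and energy supply had smaller counts, and the exact interval of each spans the 1.38% of all genes. The translation factor genes iff-2 (172.2), eef-1A.1 (125.6) and eef-1G (113.6) made 3 of 72, the respiratory chain genes cox-5A (123.4), nduf-2.2 (115.7) and cox-5B (104.1) 3 of 60, and the cytosolic chaperone genes cct-1, hsp-1 and hsp-110 3 of 56 (1 of 56 without replicate 1). The proton pump genes vha-1 (112.6) and vha-12 (109.1) made 2 of 21 and were not bound without replicate 1. The unfolded protein response gene xbp-1 (139.6) was the 1 bound gene of the 23 in the list of ER chaperones. The proteasome gene rpn-3 (99.3) was the 1 of 33 in its list, which had 0 without replicate 2.

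When these 7 lists were joined, a grouping made after the counts had been seen, 0 of 23 promoter peaks held TGATAAG (exact upper limit 14.8%) and 15 of 23 lay in the promoters of 2 or more genes. In the joined protease, effector, lectin and transthyretin-like lists, 14 of 23 peaks held TGATAAG (60.9%, interval 38.5 to 80.3) and 2 of 23 lay in the promoters of 2 or more genes. The weaker optimal peaks of the same lists had the same order, at 2 of 142 for the former and 42 of 98 for the latter. Control libraries were not analysed here, and whether signal at the ribosomal and translation promoters needs PQM-1 was not tested.

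Genes of fatty acid synthesis had more strong peaks assigned by gene body or nearest 5' end than at the promoter. The list of fatty acid synthesis, activation and elongation had 3 of 44 bound at the promoter (6.82%, interval 1.43 to 18.7), namely the acyl-CoA synthetase genes acs-7 (178.3) and acs-2 (115.9) and the elongase gene elo-2 (118.5). When gene bodies and the nearest 5' end were counted too, the count was 10 of 44, beside 2.53% of all genes. Among these was an intronic peak of fat-4, a delta-5 desaturase gene, at rank 46 (180.3; 145.0 and 35.1 in replicates 1 and 2). Another 4 strong peaks lay within 12899 bp along fat-1, an omega-3 desaturase gene, fat-2, a delta-12 desaturase gene, and far-6, a retinol-binding protein gene, with signals of 128.1, 162.3, 118.7 and 121.8. This was the only run of 4 when peaks within 5 kb of each other were joined. None of these 4 peaks, nor the 3 promoter peaks of the list, held TGATAAG. The acs-2 peak was weak in replicate 2 (10.8, against 104.3 in replicate 1).

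Genes of beta-oxidation, which shortens fatty acids, were bound in 3 of 45 cases (6.67%, interval 1.40 to 18.3), and all 3 peaks held TGATAAG. They were hacd-1, a hydroxyacyl-CoA dehydrogenase gene (125.7; 114.0 and 14.6), daf-22, a peroxisomal thiolase gene needed for dauer pheromone (111.2; 65.1 and 40.7), and acox-1.1, a peroxisomal acyl-CoA oxidase gene (108.8; 76.6 and 31.9). Both peaks upstream of cpt-1, a carnitine palmitoyltransferase gene, at -1220 and -2513 bp, held it as well. With the narrower promoter, 500 bp upstream to 100 bp downstream, 1 of 45 was bound. Lipid-binding and storage genes were bound in 3 of 54 cases (5.56%, interval 1.16 to 15.4, which spans the 1.38% of all genes). They were lbp-3 (278.2), dgat-2, a diacylglycerol acyltransferase gene (174.6), and lbp-7 (115.7). The dgat-2 peak lay nearer to the F-box gene fbxa-108, at -36 bp, than to dgat-2, at -882 bp.

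Transporters and enzymes of metabolism had few bound genes in each list, with shares from 1.35% to 8.33%. Apart from the ABC transporters, the exact interval of each of these lists spans the 1.38% of all genes. Of the ABC transporters, 4 of 48 were bound (8.33%), mrp-5, a heme exporter gene (116.3), wht-1 (113.3), haf-9 (104.5) and pgp-1, a P-glycoprotein gene (103.6), and 1 of 48 was bound without replicate 1. A stronger peak at rank 302 was also assigned to pgp-1, outside its promoter. Of the solute transporters, 5 of 181 were bound (2.76%, interval 0.903 to 6.33, which spans the 1.38% of all genes), led by smf-3, a manganese and iron transporter gene (127.1), amt-4, an ammonium transporter gene (116.3), pept-1, the peptide transporter gene of the gut (112.5), and aqp-1 (107.8). The list of metal binding and transport had 2 of 32 bound, smf-3 and cdf-2 (4 without replicate 1 and 1 without replicate 2), and 3 of 32 assigned by any rule, the third being ftn-2, a ferritin gene, at -1218 bp (156.2). The list of carbohydrate and amino acid metabolism had 2 genes bound (1.92%), the aminotransferase gene got-2.2 (118.3) and the xanthine dehydrogenase gene xdh-1 (117.2), and 11 assigned by any rule (10.6%, beside 2.53% of all genes). Outside its promoter, xdh-1 also had a stronger peak, at -1483 bp (236.1, rank 16). Membrane traffic had 2 of 103, vps-2 (147.5) and vps-60 (113.0), and 1 without replicate 1. Short-chain dehydrogenases had 1 of 30, dhs-3 (106.6), with 3 without replicate 1 and 0 without replicate 2. In the detoxification lists, 3 of 49 glutathione transferases were bound (6.12%), gst-42 (177.8), gst-22 (136.1) and gst-13 (126.4). The glucuronosyltransferases had 2 of 67 (2.99%), ugt-20 (149.9) and ugt-26 (100.6). The cytochrome P450 genes had 1 of 74 (1.35%), cyp-37B1 (136.0). The glucuronosyltransferase count was 7 without replicate 1 and 1 without replicate 2.

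**Figure D4:**
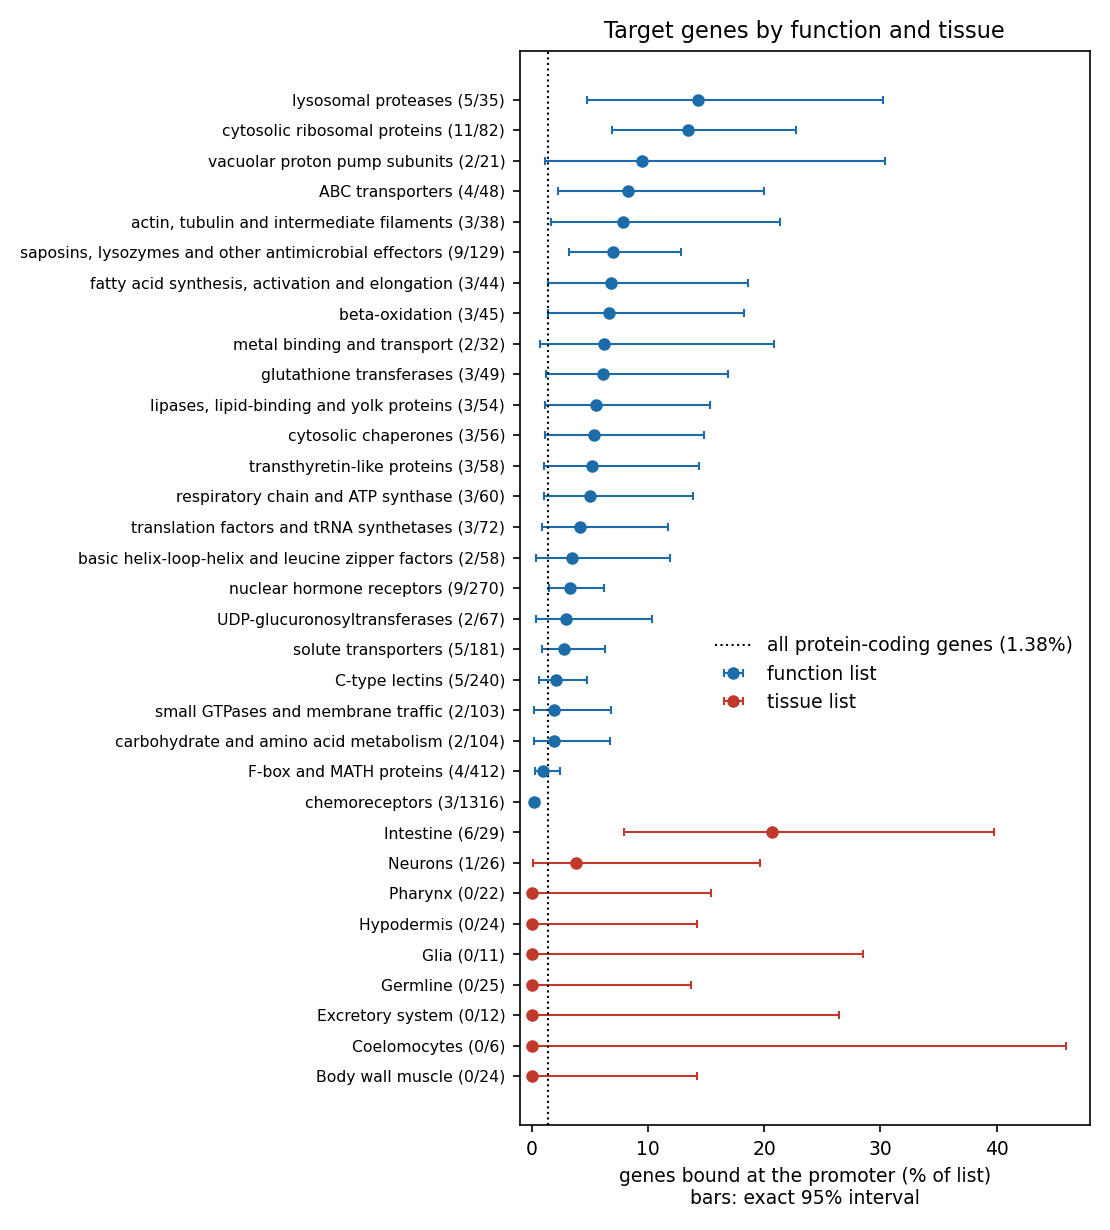
Share of the genes of each function list (blue, lists with 2 or more bound genes) and tissue list (red, all 9) with a strong summit in the promoter (horizontal, percent, bars are exact 95% intervals), with bound and listed genes in brackets; the dotted line is the 1.38% of all protein-coding genes. Lysosomal proteases (14.3%), ribosomal proteins (13.4%) and intestine markers (20.7%) lie farthest to the right, and chemoreceptors (0.228%) lie below the line.

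The lists of transcription factors differed in their counts. Nuclear hormone receptors, a family much enlarged in nematodes, were bound in 9 of 270 cases (3.33%, interval 1.54 to 6.23), and 20 of 270 (7.41%) were assigned when bodies and nearest 5' ends were counted, beside 2.53% of all genes. At promoters the strongest were nhr-68, a regulator of propionate breakdown (197.1; 150.5 and 43.3 in replicates 1 and 2), nhr-291 (163.7; 107.3 and 55.6), nhr-8 (148.2; 117.5 and 29.9) and nhr-121 (144.2; 95.6 and 52.5). Away from promoters, nhr-28 had a peak at -5747 bp (209.2) and another at -8325 bp (146.1), and nhr-19 and nhr-46 each had 2 in the gene body. Of the 9 promoter peaks 2 held TGATAAG.

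Of the 12 GATA factors, elt-2 had a promoter peak at -456 bp (128.0; 91.8 and 36.4) without TGATAAG. The hypodermal factor gene elt-3 had an intronic peak with it (115.3; 76.3 and 37.8), and egl-27 had 1 in its body (122.6). Of the 58 basic helix-loop-helix and leucine zipper genes, zip-2, which acts in defence against bacteria, and zip-11 were bound with TGATAAG (155.3 and 106.3). The forkhead list had 0 of 16 bound at the promoter (exact upper limit 20.6%), but daf-16 (119.7), fkh-7 (116.0) and fkh-9 (180.7) had peaks in the gene body, and so did skn-1 of the oxidative stress response (120.3). The only insulin-like gene bound at its promoter was ins-12 (119.8; 101.8 and 19), and none was without replicate 1. The kinase and insulin or TOR signalling list had rheb-1, a GTPase gene upstream of TOR (127.5), and the autophagy list had lgg-2 (109.5), not bound without replicate 1.

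No gene was bound at the promoter in 10 function lists, forkhead factors among them. In these lists a count of 0 cannot be told apart from the 1.38% of all genes, since the exact upper limit was above it in each, from 1.98% for collagens to 20.6% for forkhead factors. Homeobox factors (117 genes), cuticle collagens (184), neuropeptides (106), hedgehog-related and patched-related genes (85), histones (72), mitochondrial ribosomal proteins (70), major sperm proteins (43), secreted astacins (37) and superoxide and peroxide defence genes (29) were the others. Chemoreceptors, which are expressed mostly in sensory neurons, had 3 of 1316 (0.228%, interval 0.0470 to 0.665), srz-62, srr-6 and sri-39, and were the only function list whose interval lay below 1.38%. F-box and MATH genes had 4 of 412 (0.971%, interval 0.265 to 2.47), namely fbxc-29 (208.3), fbxa-108 (174.6), fbxc-19 (146.5) and fbxb-72 (116.5). The srz-62 peak was the second strongest of the list. Any optimal peak bound 31 of the 1316 chemoreceptors (2.36%, beside 16.3% of all genes), so a low share was not particular to the strong peaks.

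Among the tissue marker lists, that of the intestine had the most bound genes. Of 29 intestine markers 6 were bound by a strong peak (20.7%, interval 7.99 to 39.7) and 19 by any optimal peak (65.5%, beside 16.3% of all genes). They were act-5, the actin of gut microvilli (152.6; 99.1 and 51.7 in replicates 1 and 2), spp-5 (137.5), elt-2 (128.0), asp-1 (121.5; 103.0 and 18.9), pept-1 (112.5; 77.3 and 35.9) and pgp-1 (103.6; 74.3 and 26.6). A seventh marker, ifb-2, an intestinal intermediate filament gene, had a peak at -1629 bp (142.1) and another in its body (106.6), and ifo-1, the intestinal filament organizer gene, was bound at -296 bp (107.6). The list of actin, tubulin and intermediate filaments had 3 of 38 bound, act-5, ifo-1 and the tubulin gene tba-2 (104.1). TGATAAG was at 2 of the 6 promoter peaks, those of spp-5 and asp-1. The count was 5 of 29 without replicate 1 and 6 of 29 without replicate 2. The lists of hypodermis (24 genes), body wall muscle (24), pharynx (22), germline (25), excretory system (12), coelomocytes (6) and glia (11) had 0 bound by a strong peak, with exact upper limits from 13.7% for germline to 45.9% for coelomocytes. These limits lie above the 1.38% of all genes and reach into or past the intestine interval. A count of 0 in these short lists therefore cannot be told apart from either share. Without replicate 1, 1 germline gene was bound. Of 26 neuron markers 1 was bound, egl-21, a carboxypeptidase gene of neuropeptide processing, whose summit lay at -946 bp (173.8; 123.2 and 55.2) and was not counted with the narrower promoter.

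Genes with repeated strong summits in the promoter or body numbered 15, with 2 summits each. They were cpr-9, zip-2, nhr-19, nhr-46, fkh-9, pkg-2, scd-1, sma-2, ugtp-1, E01G4.3, C41D11.3, F43C9.1, Y111B2A.12, Y48C3A.5 and Y62E10A.13. The same 2 peaks were counted for sma-2 and its neighbour ugtp-1. When peaks within 5 kb were joined, 409 of the 500 stood alone and 91 lay in 44 runs, of which the run at the fat genes and a run of 3 at adh-1, with signals of 159.7, 116.1 and 103.6, were the only ones with more than 2. Another optimal summit lay within 1000 bp of 20.6% of the strong peaks and of 19.5% of the others (odds ratio 1.07, interval 0.845 to 1.35; Fisher's exact test, p = 0.555).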

How the data were processed

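PQM-1 binding was measured by chromatin immunoprecipitation and sequencing in 2 biological replicates of 1 group. The deposited peak lists on ce11 give, for each peak, a signal value that is a score of the authors' caller with no stated scale, a -log10 q-value of the authors, and a summit. Per the file lists, the optimal list was kept by the authors at an irreproducible discovery rate threshold and the lists were made against a control alignment. For the alignment and calling steps, neither tools nor settings are named, and the threshold used is not stated. The lists hold no reads, so depth is unknown.

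Peaks of the optimal list were sorted on the signal. Summits were placed on protein-coding genes of the WBcel235 annotation (Ensembl release 115), the assembly named ce11, with products from RefSeq. Promoters reached from 1000 bp before a gene's 5' end to 250 bp past it. Otherwise a summit went to the gene body that held it or to the nearest 5' end. Motifs on either strand counted when they lay at most 50 bp from the summit. An overlap of 1 bp joined a peak to a replicate's relaxed peak. Shares were compared with those of the other optimal peaks by two-sided Fisher's exact tests with Benjamini-Hochberg adjustment within each family, and intervals are exact (Clopper-Pearson, 95%) and cover counting error only. These tests treat neighbouring peaks as independent and measure spread over peaks, not over animals. Tests used scipy 1.17.1 with numpy 2.4.6 and pandas 2.3.3 under Python 3.11.15, with plots by matplotlib 3.10.9, and the tests were tested on simulated data.

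The peaks and gene lists were chosen with earlier results of these data known, including that TGATAAG is more common at stronger peaks, so its share here is no independent support. Named genes are the up to 4 with the strongest promoter summit in each function list and up to 6 in each tissue list, those of ranks 21 to 40 and of the 5 peaks on each side of the limit, and genes with repeated summits. Genes named beyond this rule were chosen after their values were seen. The heptamer scan, the chromosome and divergent promoter tests, the joined lists, the product groups and the alternatives run for CACGTG were added after the values had been seen. Alternatives changed the number of peaks, the comparison peaks, the promoter and distance limits, the annotation and the replicate that ranked the peaks.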

Additional observations from a re-analysis of the deposited data

How the results depend on the processing

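No paired analysis was possible because there is 1 group. The TGATAAG difference (12.2 percentage points) kept its direction under every alternative run, from 5.99 to 18.4 points. So did those of CACGTG and chromosome I, with unadjusted p from 0.000597 to 0.0251 and from 0.00125 to 0.0464. These are not adjusted over motifs or chromosomes as the reported tests are, so passing after adjustment under each alternative was not tested. Against the weakest 500 peaks, the promoter share differed by 0.6 points and the X chromosome share by 0.6, and the latter by 0.625 with the strongest 250, all opposite in sign to the values reported. When each replicate was left out in turn, the promoter difference ran from -4.71 to 3.26 points, the distal one from -0.568 to 4.85, the X chromosome one from -0.265 to 2.42, the divergent one from -5.32 to -3.04 and the GC one from 0.0435 to 0.377. The cause was not tested. Genes bound numbered 137 with the strongest 250 peaks, 575 with the strongest 1000 and 506 when gene bodies and nearest 5' ends were added, as more peaks or wider rules take in more genes. Without replicate 1, 269 genes were bound, of which 185 were among the 275, and without replicate 2, 268, of which 235 were. Depth is unknown, and no other condition was compared.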

Other observations

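The product names of the bound genes held some groups that the lists do not cover, chosen after their values were seen and given as values only. CUB-like genes, many of which respond to infection, were bound at the promoter in 7 of 71 cases (9.86%, beside 1.38% of all genes), led by C29F3.7 at rank 38 (192.9). Any optimal peak bound 36 of the 71 (50.7%, beside 16.3% of all genes), so a high share was not particular to the strong peaks. Genes with an MD-2-related lipid-recognition domain were bound in 3 of 5 cases (interval 14.7% to 94.7%), Y51F10.7 (rank 110), C17F4.7 (rank 184) and F42A10.7 (rank 247). Of 11 genes of the Sma/Mab pathway, a TGF-beta pathway that sets body size, sma-10 (151.7) and sma-2 (132.5 and 112.7) were bound (18.2%, interval 2.28 to 51.8). Any optimal peak bound 5 of these 11. Of 14 sphingolipid genes, cgt-3 (rank 195), sms-3 (rank 407), sptl-2 (rank 428) and sptl-3 (rank 441) had strong peaks assigned by gene body or nearest 5' end, beside 2.53% of all genes assigned by any rule, and 0 of the 14 were bound at the promoter. In the other groups, 3 of 114 major facilitator genes, 2 of 26 fungal lipase-type genes and 1 of 5 AMPK gamma genes were bound at the promoter. The counts were 11 of 1863 for uncharacterized genes, 0 of 6 for the dauer TGF-beta pathway and 0 of 7 for fatty acid desaturases.

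Strong peaks were also assigned to rege-1, an endoribonuclease gene, at ranks 58 (172.4) and 143 (142.3), and to the promoter of ets-4 (145.5), whose mRNA REGE-1 is known to degrade. The ets-4 summit lay at -123 bp and held TGATAAG. The peaks assigned to pud-3 and pud-4, at ranks 62 and 57, held TGATAAG too. They lay outside the promoters and bodies of these genes, 715 and 624 bp downstream of the nearest 5' end. Among non-coding genes, the intestinal microRNA cel-mir-60 had a summit at -69 bp (132.3), and the spliced leader RNA genes sls-2.2, sls-2.4 and sls-2.1 had summits at -50, -40 and 90 bp.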
